A study of Rattus norvegicus with 5 samples.

Results

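The arrays with low Ins2 signal were set against those with high Ins2 signal in INS-1, an insulin-producing cell line from a rat beta cell tumour. The arrays were grouped by a measured value: the Ins2 probe set read under 10000 on 3 of 5 arrays (clones 1-1.16, 5-3.14 and 5-3.19) and at or above 10000 on 2 (the parental line and clone 1-1.2). RNA from the parental INS-1 line and from each of 4 derived clones was hybridised to 1 single-colour array per line or clone, so no group has a repeat of the same culture. Per the labels, every clone is a FLP-In T-REx clone. Clones of this system carry an FRT site, where a chosen transgene can be inserted by recombination, and the tetracycline repressor. The repressor keeps such a transgene silent until tetracycline is given. The parental line is named as such only, and no introduced gene or tetracycline treatment is named for any array. Clones 1-1.2 and 1-1.16 carry the prefix 1-1 and clones 5-3.14 and 5-3.19 the prefix 5-3. The labels do not say whether clones with a shared prefix share an origin, and each is 1 line.

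Because the Ins2 values chose the sides, no test was made and every value here is a description of these 5 arrays. A gene is said to follow Ins2 where both Ins2-high arrays read above all 3 Ins2-low arrays, and to oppose it where both read below. The gap is the dimmest array of the brighter side over the brightest array of the dimmer side, after adding 21.8 signal units to each. Values are given in a fixed order, the parental line and then clone 1-1.2 for the Ins2-high side, and clones 1-1.16, 5-3.14 and 5-3.19 for the Ins2-low side. Both 5-3 clones lie on the low side, so the 5-3 prefix and low Ins2 cannot be told apart except through clone 1-1.16. In these bulk samples fewer cells of a type and less RNA per cell cannot be told apart.

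Rats have an Ins1 and an Ins2 gene, and both encode preproinsulin. Preproinsulin enters the endoplasmic reticulum through the translocon, is folded there with disulfide bonds, and is then cleaved to insulin in secretory granules. Transcription of both genes in beta cells depends on short promoter elements: A boxes with a TAAT core, bound by homeodomain factors such as Pdx1, and E boxes with the letters CATCTG, bound by basic helix-loop-helix factors such as Neurod1. Glucagon, encoded by Gcg, is the hormone of alpha cells. The upstream sequences of Ins2, Ins1 and Gcg are shown because Ins1 is the closest relative of the gene that set the sides and Gcg ran opposite to it. Each is the 250 bases before the gene start in RefSeq (GRCr8), 5′ to 3′ on the gene's own strand. Capitals mark the A box core TAAT, the E box CATCTG and TGACG, the core of a cyclic AMP response element, each on either strand. Adjoining or overlapping matches run together in the capitals.
Ins2: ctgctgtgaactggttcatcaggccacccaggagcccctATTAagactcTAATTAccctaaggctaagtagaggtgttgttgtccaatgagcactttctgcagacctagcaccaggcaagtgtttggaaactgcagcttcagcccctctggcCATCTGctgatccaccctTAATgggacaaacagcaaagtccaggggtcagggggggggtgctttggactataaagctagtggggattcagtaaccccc
Ins1: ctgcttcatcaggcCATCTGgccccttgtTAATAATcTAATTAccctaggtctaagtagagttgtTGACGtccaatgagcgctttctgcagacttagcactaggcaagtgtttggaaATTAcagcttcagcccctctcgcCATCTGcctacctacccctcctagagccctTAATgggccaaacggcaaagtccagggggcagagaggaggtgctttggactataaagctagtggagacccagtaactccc
Gcg: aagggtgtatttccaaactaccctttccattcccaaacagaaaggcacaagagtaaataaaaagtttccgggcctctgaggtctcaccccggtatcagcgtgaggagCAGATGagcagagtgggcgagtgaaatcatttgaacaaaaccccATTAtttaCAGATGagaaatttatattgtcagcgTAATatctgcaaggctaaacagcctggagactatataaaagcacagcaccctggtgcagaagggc
The Ins2 stretch lies at chr1:207273806-207274055 on the minus strand, that of Ins1 at chr1:261185869-261186118 on the plus strand, and that of Gcg at chr3:67531534-67531783 on the minus strand. Ins2 and Ins1 matched at 205 of 262 aligned columns (78.2%). TAAT occurred 4 times upstream of Ins2, 6 times upstream of Ins1 and 2 times upstream of Gcg, counting both strands. CATCTG occurred 1 time upstream of Ins2, 2 times upstream of Ins1 and 2 times upstream of Gcg. TGACG occurred 1 time upstream of Ins1 and 0 times in the other windows. Of 33469 rat promoter windows of this length, 57.0% held TAAT, 13.96% CATCTG and 18.2% TGACG on either strand, and these matches describe letters, not bound sites.

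The Ins2 probe set read 28816 and 30224 on the Ins2-high arrays and 5381, 3953 and 4303 on the Ins2-low arrays. The array just under the limit was clone 1-1.16 at 5381, and the array just above it was the parental line at 28816. These values chose the sides and support nothing. Ins1 did not separate the sides: it read 37359.9 and 42217 on the Ins2-high arrays and 34381, 37972.5 and 37189.5 on the Ins2-low arrays, and clone 5-3.14 lay above the parental line. The Ins1 probe set gave the highest signal of all probe sets on every array, and whether it had reached a ceiling was not tested. Ins1 and Ins2 transcripts are close in sequence, and how far the probe sets read both was not tested either. Islet amyloid polypeptide, the peptide hormone Iapp that beta cells store and release with insulin, read 27899 and 33945 against 19870.5, 28102 and 19159.8. Iapp overlapped through clone 5-3.14, while clones 1-1.16 and 5-3.19 read below both Ins2-high arrays.

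**Figure D1:**
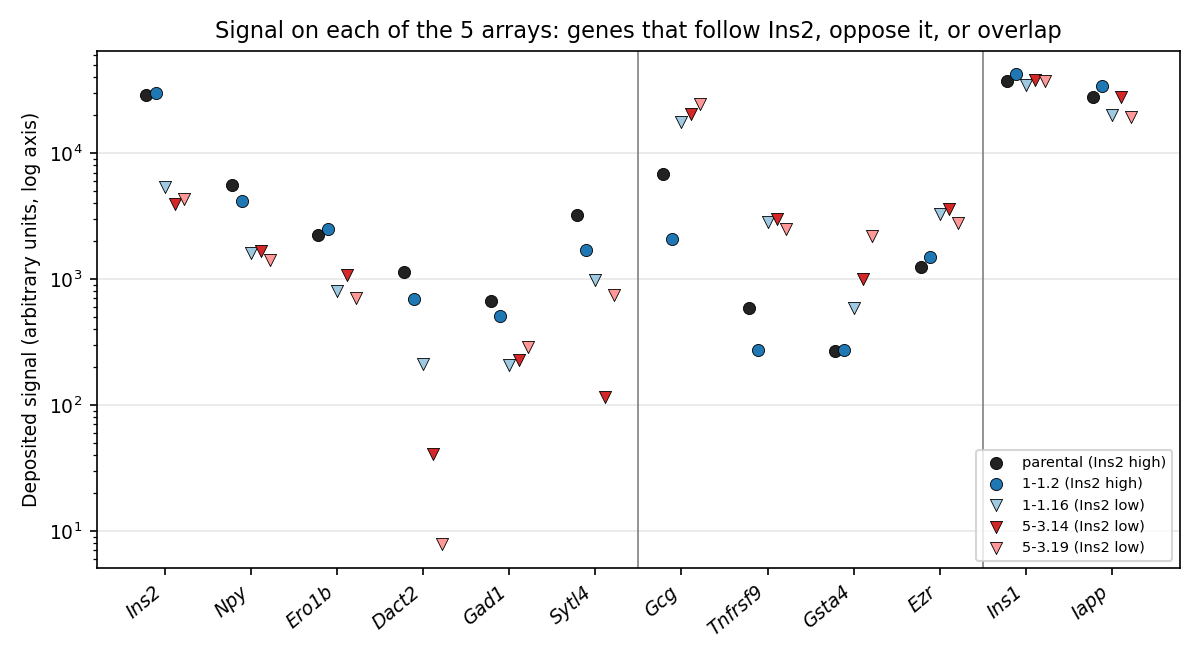
Deposited signal (vertical log axis, arbitrary units) of 12 genes on each of the 5 arrays; circles are the Ins2-high arrays, triangles the Ins2-low arrays, and each point is 1 array with no error bar. Genes left of the first line follow Ins2, those between the lines oppose it, and Ins1 and Iapp overlap between the sides.

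Of 15865 probe sets other than Ins2, 1496 followed it with no overlap (9.43%) and 1501 opposed it (9.46%), so neither direction prevailed. Any split of 5 arrays into 2 and 3 leaves some probe sets with no overlap. How many another split would leave was not counted, so these counts alone show no tie to Ins2. A gap of at least 2-fold was rare. It was reached by 23 probe sets that followed Ins2 (0.145%), 18 of them with a gene name, and by 14 that opposed it (0.0882%), 11 of them named. Most of these were dim: with the brighter side at a signal of 500 or more, 3 followed and 4 opposed Ins2 at 2-fold. By gene, taking the brightest probe set of each, 989 of 10410 followed Ins2 (9.5%) and 1015 opposed it (9.75%). Leaving an array out can only keep or widen a gap, so every count rose. Leaving out an Ins2-high array gives a more uneven split than leaving out an Ins2-low array. An uneven split of the arrays that remain separates more often by itself. Counts without a high array and without a low array thus come from unlike splits and do not rank the arrays. The 2-fold counts, followers first, were 102 and 146 without the parental line, 194 and 117 without clone 1-1.2, and 124 and 79 without clone 1-1.16. They were 47 and 35 without clone 5-3.14 and 52 and 39 without clone 5-3.19. The counts with no overlap were likewise at most 3952 followers without clone 1-1.2 and 3687 opposers without the parental line, and at least 2284 and 2448 without clone 5-3.19. The shares of all genes that followed or opposed Ins2, against which list counts over fewer arrays are read, were 22.5% and 22.9% without the parental line, 23.9% and 23.5% without clone 1-1.2, and 20.8% and 17.1% without clone 1-1.16. They were 15.0% and 18.3% without clone 5-3.14 and 14.3% and 15.96% without clone 5-3.19.

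Among genes with a bright side at 500 or more, the widest gaps in the direction of Ins2 were those of Dact2, Npy and Ero1b. Npy, Ero1b and Gcg were, with Ins2, the genes on which the comparison was proposed. Their separation is therefore no independent finding. Dact2, a modulator of Wnt and TGF-beta signalling, read 1132 and 690.1 on the Ins2-high arrays and 212, 40.7 and 7.8 on the Ins2-low arrays, a gap of 3.04-fold. Both 5-3 clones read near the lowest signals, and clone 1-1.16 read well above them. Npy encodes neuropeptide Y, a peptide transmitter also made by some islet cells. It read 5552 and 4179 against 1621, 1664 and 1425.5, a gap of 2.49-fold. The Ins2-low arrays lay close together for Npy, within 1425.5 to 1664, and the parental line read above clone 1-1.2. Ero1b encodes an oxidase of the endoplasmic reticulum that regenerates disulfide bonds and is abundant in beta cells. Its bright probe set read 2234.5 and 2472 against 808, 1079 and 700.3, a gap of 2.05-fold. Its dim probe set read 81.3 and 167 against 59.4, 46.9 and 81 and barely separated the sides. The dim probe set overlapped under each of the other scalings (median centring, quantile normalization and cyclic loess). The order within the low side was not that of Ins2 for Npy and Ero1b, since clone 1-1.16, the highest of the Ins2-low arrays for Ins2, was not the highest for either.

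The other followers had narrower gaps. Sytl4 encodes granuphilin, which docks insulin granules at the plasma membrane. It read 3234 and 1708 against 978, 116.5 and 748, a gap of 1.73-fold, with clone 5-3.14 far below the other Ins2-low arrays. Gad1, a glutamate decarboxylase that makes GABA, read 664 and 504 against 206, 227 and 288. Its gap was 1.70-fold, and its dimmer probe set ran the same way at 1.75-fold. Fam53a read 726 and 644 against 297, 338 and 365.5, a gap of 1.72-fold, and Exd2, a nuclease-domain protein, read 758 and 765 against 394, 434 and 453, a gap of 1.64-fold. Both were tight within each side. Map2, which binds microtubules in neurons, read 1302 and 1472 against 793.5, 857 and 729, a gap of 1.51-fold, and its dimmer probe set ran the same way. The kinase Dyrk2 read 602 and 706 against 392, 291 and 388.5, a gap of 1.51-fold, while its brighter probe set had a gap of 1.10-fold. The membrane scramblase Ano6 (1.48-fold), the prenylated Rab acceptor Rabac1 (1.45-fold), the co-chaperone Dnajc24 (1.44-fold), the exchange factor Rapgef5 (1.41-fold) and the ketone-using enzyme Oxct1 (1.40-fold) complete the 14 followers with the widest gaps. Of these, Rabac1 was the most even, with 5629 and 5641 on the high side and 3705.5, 3871 and 3826 on the low side.

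Gcg, another gene on which the comparison was proposed, ran opposite to Ins2. It read 6874.5 and 2064 on the Ins2-high arrays and 17772, 20549.5 and 24434 on the Ins2-low arrays, a gap of 2.58-fold. The high side itself was spread, with the parental line above clone 1-1.2 although their Ins2 signals were close. The widest gap against Ins2 was that of Tnfrsf9, the costimulatory receptor 4-1BB of lymphocytes. It read 590.3 and 271 against 2824, 3016 and 2508, a gap of 4.13-fold, with the 3 low arrays within a narrow band. Gsta4, a glutathione transferase that clears lipid aldehydes, read 267 and 274 against 584, 1000.1 and 2209.6, a gap of 2.05-fold. It was even on the high side and most spread on the low side.

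Ezr encodes ezrin, which links the actin cortex to the membrane, and it read 1247.5 and 1487 against 3254, 3569 and 2795, a gap of 1.87-fold. For Crem, a cyclic AMP responsive modulator of transcription, all 3 probe sets opposed Ins2 but differed in width. The probe set with the widest gap read 900.1 and 794 against 2978, 1595 and 3154, a gap of 1.75-fold, and the brightest read 1302 and 1399.6 against 2598, 1406.5 and 2739.9, with clone 5-3.14 almost level with clone 1-1.2. The gap of the dimmest was 1.03-fold. Pon2, a lactonase with antioxidant activity, read 1456 and 1398 against 2657, 2436 and 3169, a gap of 1.66-fold. Ptgfrn, a partner of tetraspanins, read 392 and 338 against 645, 1838.5 and 1020.1, and its low side was widely spread. Acsl1, which activates long-chain fatty acids, opposed Ins2 on both of its probe sets, at gaps of 1.39-fold and 1.58-fold. The gaps of Skic2, an RNA helicase of the Ski complex, Ptgr1, a prostaglandin reductase, and the helicase Ddx19b were 1.55-fold, 1.55-fold and 1.54-fold. Gcnt3, which branches mucin-type glycans, read 429 and 120.2 against 674, 1686 and 1131. The kinase Wnk1 opposed Ins2 on 3 of its 4 probe sets, with a widest gap of 1.54-fold. Irf7, a transcription factor of the interferon response, read 329 and 305 against 530.4, 582 and 512, a gap of 1.52-fold.

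A stricter reading, chosen after the values were seen, asked that the gap be wider than the range within either side. Of 15865 probe sets of all brightness, it held for 181 followers and 199 opposers. With a gap of at least 1.5-fold and a brighter side at 500 or more, 7 followers (Npy, Ero1b, Fam53a, Gad1, Exd2, Dyrk2 and Map2) and 7 opposers (Tnfrsf9, Ezr, Pon2, Acsl1, Skic2, Wnk1 and Irf7) were left. On the high side 6456 probe sets were that bright, and on the low side 6151. Dyrk2, Acsl1 and Wnk1 did not meet it on their brightest probe sets, with gaps of 1.10-fold, 1.39-fold and 1.30-fold. Dact2, Sytl4, Gcg, Gsta4 and Crem did not meet it, because at least 1 side of each was more spread than the gap.

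A low and a high array can also be compared in 2 array sets that share no array: clone 1-1.16 against clone 1-1.2, and both 5-3 clones against the parental line. At least 2-fold lower Ins2-low signal was found in both sets for 41 probe sets (0.258%), and at least 2-fold higher signal for 31 (0.195%). In the 1-1 clones alone 494 probe sets were at least 2-fold lower in clone 1-1.16, and in the other set 423 were lower in both 5-3 clones. The 41 shared ones were 8.30% of the first and 9.69% of the second, where 2.67% of all probe sets were lower in both 5-3 clones. A further 21 (4.25%) ran the opposite way in both 5-3 clones, where 1.75% of all probe sets were higher in both. In the other direction 779 and 278 were higher, and the 31 shared ones were 3.98% and 11.2% of these, where 1.75% of all probe sets were higher in both 5-3 clones. A further 38 of the 779 (4.88%) ran the opposite way, where 2.67% of all were lower in both. Without clone 5-3.14 the shared counts were 88 lower and 79 higher, and without clone 5-3.19 they were 99 and 71.

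The named genes with the largest smaller fold of the sets were Dact2, Npy, Gad1, Ero1b, Gng3 and Col9a1 among those lower, and Tnfrsf9, Gcg, Gcnt3, Gsta4, Ezr and Sprtn among those higher. Of these, Npy, Ero1b and Gcg are genes on which the comparison was proposed. Gng3, a G protein gamma subunit of neurons and endocrine cells, read 3107 and 5095 on the Ins2-high arrays and 2453, 129 and 38.5 on the Ins2-low arrays. Clone 1-1.16 read within reach of the parental line for Gng3, and the 5-3 clones read far below it. Col9a1, a collagen chain of cartilage, read 1983 and 749.7 against 340.1, 682 and 452, with clone 5-3.14 only just below clone 1-1.2. Sprtn, a protease that clears protein cross-linked to DNA, read 546 and 368 against 826, 1408 and 1177, and its gap was 1.49-fold.

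**Figure D2:**
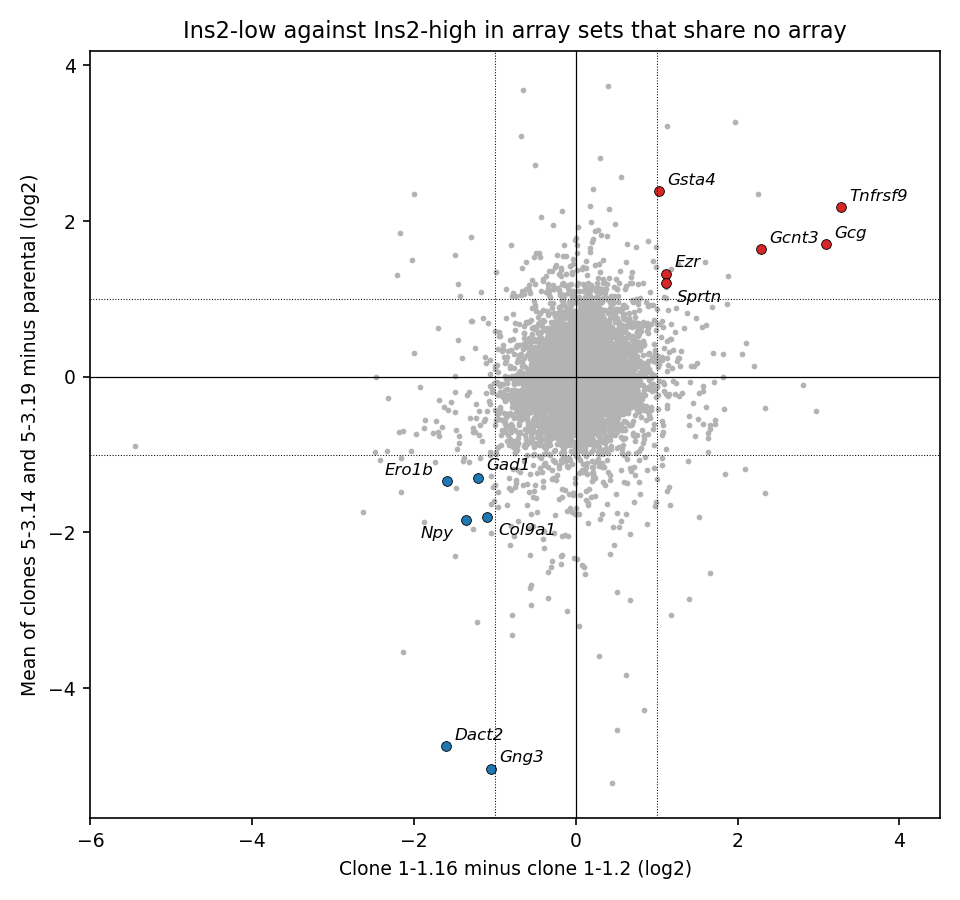
Difference in log2(signal + 21.8) between clone 1-1.16 and clone 1-1.2 (horizontal) and between the mean of both 5-3 clones and the parental line (vertical) for the 7924 probe sets that reach a signal of 500 on any array; dotted lines mark 2-fold. Blue points (lower) and red points (higher) are the 12 genes named for both sets, and the bulk of the grey points lies inside the dotted lines.

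Several genes that fold proteins in the endoplasmic reticulum followed Ins2, most of them by a narrow gap. Of 23 measured genes of oxidative folding, 7 followed Ins2 and 0 opposed it (30.4% against 9.5% of all genes). Of 27 measured chaperones and unfolded protein response genes, 9 followed it and 1 opposed it (33.3%). The 7 include Ero1b, a gene on which the comparison was proposed. All lists were chosen with earlier results of these data known, so shares above that of all genes are no independent finding. Apart from Ero1b, the gaps were small, from 1.01-fold for Hsp90b1 to 1.33-fold for Dnajb9. The median difference of the low from the high side was -0.15 (log2) for oxidative folding and -0.33 for the chaperones, against -0.00 over all genes. Hspa5 encodes BiP, the main Hsp70 chaperone of this compartment, and it read 14955 and 20628 on the Ins2-high arrays and 12753, 10469 and 10178 on the Ins2-low arrays. Dnajb9, a BiP co-chaperone, read 2027 and 1164 against 870.4, 717.5 and 864, and the disulfide isomerase Pdia6 read 9999 and 12342 against 8109, 8367 and 8033. Sdf2l1, another BiP partner, read 4704 and 9900.2 against 2938, 4155 and 1157, and Manf, a secreted stress-response protein, read 6123 and 8916 against 5409.6, 5296 and 3595. For Hspa5, Pdia6, Sdf2l1 and Manf clone 1-1.2 read above the parental line.

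The chaperone list was lower within each array set too, with medians of -0.41 for clone 1-1.16 against clone 1-1.2, -0.21 for clone 5-3.14 and -0.35 for clone 5-3.19 against the parental line. In clone 1-1.16, 22 of 27 members were below clone 1-1.2, and 20 of 27 were below the parental line in both 5-3 clones (81.5% and 74.1%), where 43.9% and 35.6% of all genes were. Clone 1-1.2 was itself above the parental line, with a median of 0.22. Leaving out an array moved the counts of both lists. Without the parental line, 14 of 23 oxidative folding genes and 17 of 27 chaperones followed Ins2 (22.5% of all genes), and without clone 1-1.16, 18 chaperones did (20.8% of all genes). Without clone 1-1.2, 7 of 23 and 12 of 27 followed it where 23.9% of all genes did, and the median of the oxidative folding list turned to 0.017. That list therefore stands near all genes without clone 1-1.2. Under the other scalings 6 to 7 of 23 and 7 to 11 of 27 followed Ins2.

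**Figure D3:**
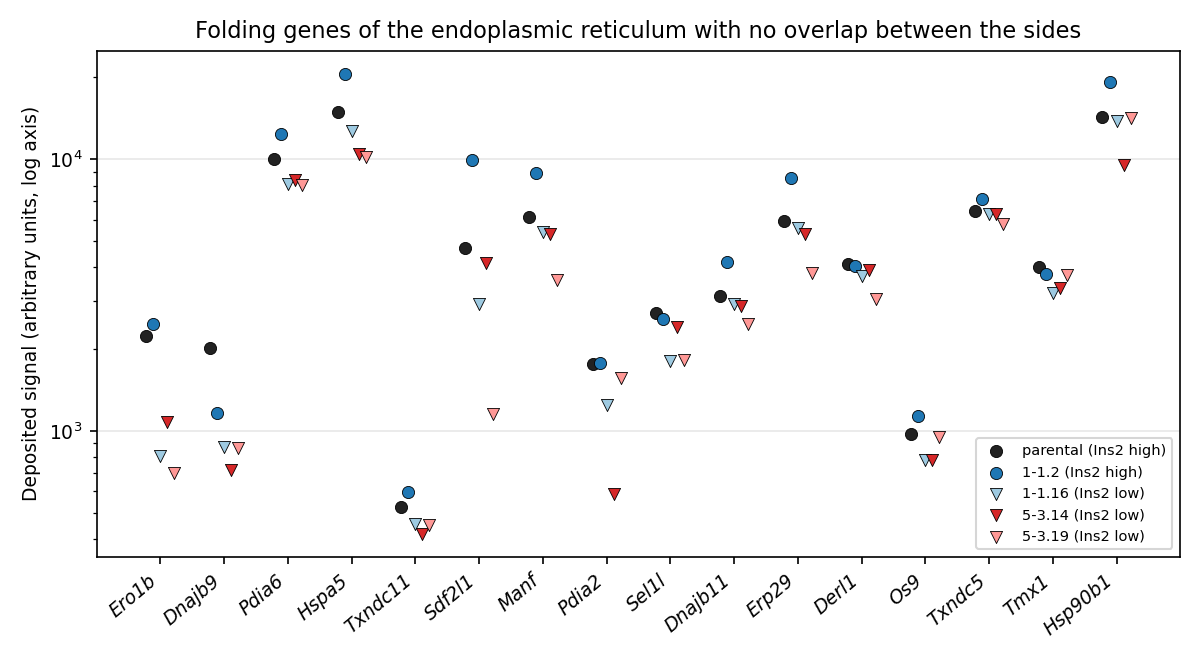
Deposited signal (vertical log axis, arbitrary units) on each array for the 16 genes of the oxidative folding and chaperone lists that follow Ins2, chosen by that and ordered by gap; circles are the Ins2-high arrays and triangles the Ins2-low arrays. Ero1b and Dnajb9 show the widest gaps, and for Hsp90b1 the parental line and clone 5-3.19 nearly coincide.

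The translocon and signal peptidase list, through which preproinsulin enters the compartment, held 5 followers of 27 (18.5%) and 0 opposers, with a median of -0.20. The widest gaps were those of the signal recognition particle subunit Srp14 (1.10-fold), the glycosylation subunit Rpn2 (1.09-fold), the receptor subunit Srpra (1.07-fold) and the translocon-associated Ssr1 (1.03-fold). Rpn2 read 15539.9 and 18059.8 against 12884, 14248 and 13953. Ssr1 overlapped under quantile normalization. Without the parental line, 22 of 27 members followed Ins2 (81.5%, against 22.5% of all genes), and without clone 1-1.16, 11 did (40.7% against 20.8%). Without clone 5-3.14, 8 followed it (29.6% against 15.0%). Without clone 1-1.2, 5 followed it, a share of 18.5% that lies below the 23.9% of all genes, and 3 opposed it. Clone 1-1.2 lay above the parental line by a median of 0.28.

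Of 30 measured genes of neurons, many of which endocrine cells share, 7 followed Ins2 (23.3%) and 0 opposed it. Besides Gad1 and Map2 these included Gad2, the other glutamate decarboxylase and a known autoantigen of beta cells, at 301 and 569 against 191.5, 117 and 186. Sncb, beta-synuclein, read 7400.2 and 3093 against 2553, 1404 and 2356 with the parental line far above all clones. The list had a median of -0.34. Without clone 1-1.2, 17 of 30 followed Ins2 (56.7%, against 23.9% of all genes), and without clone 1-1.16, 13 did (43.3% against 20.8%). Without the parental line, 8 of 30 did (26.7% against 22.5%), near the share of all genes.

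The machinery of regulated exocytosis was split, with 4 followers and 6 opposers among 30 measured genes (13.3% and 20.0%). Members of a family ran opposite ways. Cadps, which primes granules for release, read 1773 and 1283 against 989, 917 and 862, a gap of 1.29-fold. Its relative Cadps2 read 397 and 503 against 764, 727 and 680.4, a gap of 1.34-fold in the other direction. The synaptotagmin Syt11 followed Ins2 at 629 and 537 against 447, 316 and 316. Granuphilin, described above, was the widest follower of the list. Without clone 1-1.16, 13 members opposed Ins2 (43.3%, against 17.1% of all genes), and without the parental line 12 did (40% against 22.9%). Without clone 1-1.2, 8 followed it (26.7% against 23.9%) and 10 opposed it (33.3% against 23.5%).

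**Figure D4:**
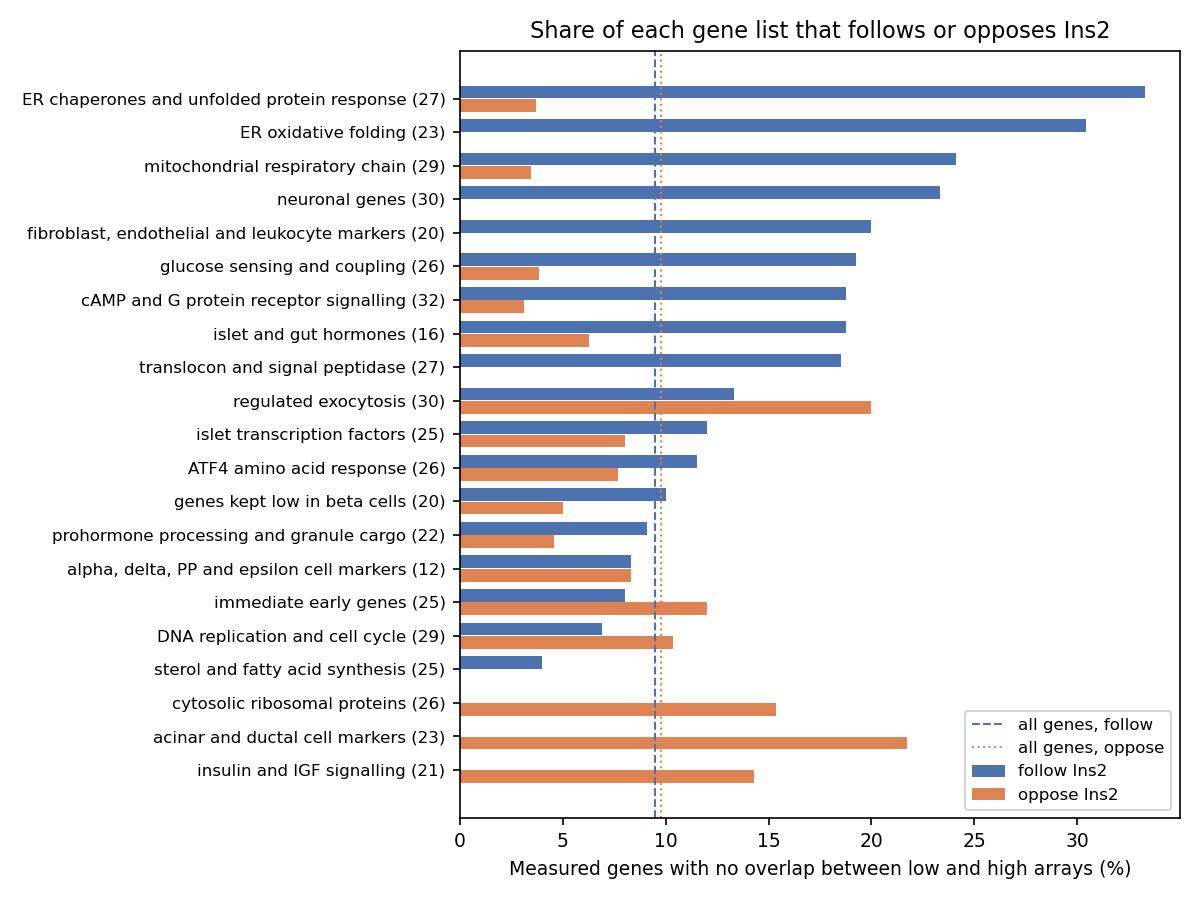
Share (%) of the measured genes of each of the 21 lists that follow Ins2 (blue) or oppose it (orange) with no overlap between the sides; the number measured stands in parentheses, bars start at 0, and the lines mark all genes at 9.5% and 9.75%. Both lists of folding in the endoplasmic reticulum stand at the top, at 33.3% and 30.4%. The lists were chosen with earlier results of these data known, and the oxidative folding list counts Ero1b.

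Of 25 measured islet transcription factors, 3 followed Ins2 and 2 opposed it (12.0% and 8.0%), shares near those of all genes. Without clone 1-1.2, 10 of 25 followed it (40%, against 23.9% of all genes), and without the parental line 6 opposed it (24.0% against 22.9%). Neurod1 read 8773 and 6927 on the Ins2-high arrays and 2790.1, 6392 and 5773 on the Ins2-low arrays, a gap of only 1.08-fold, with clone 1-1.16 far below the rest. Pdx1, which binds the A boxes, overlapped at 2829.8 and 2343 against 1454, 2845 and 2185, with clone 5-3.14 above both Ins2-high arrays. Foxa3, a forkhead factor of endoderm, opposed Ins2 at 204 and 313 against 436, 409.5 and 498. Slc2a2, the glucose transporter GLUT2, overlapped at 8926 and 5337.5 against 6485, 4153 and 10531, its highest and lowest values both being those of 5-3 clones.

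Of 22 measured genes of prohormone processing and granule cargo, 2 followed Ins2 and 1 opposed it (9.1% and 4.5%, against 9.5% and 9.75% of all genes). The granins overlapped: Chga read 24082 and 24011 against 18589, 21575 and 24607, and Chgb read 28475 and 28575 against 31121, 28465 and 36306. Pcsk2, the convertase that cleaves proinsulin and proglucagon, read 9129.9 and 3331 against 1974, 7512 and 8705. Its low values were those of the 1-1 clones on both sides, so Pcsk2 split the arrays by the 1-1 prefix. Cpe, the carboxypeptidase that trims cleaved prohormones, followed at a gap of 1.03-fold that was lost under all 3 other scalings.

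Of 16 hormones measured besides Ins2, 3 followed it (Npy, Gip and Adm) and Gcg opposed it. These shares were 18.75% and 6.25%, against 9.5% and 9.75% of all genes. Npy and Gcg are genes on which the comparison was proposed, so these shares are no independent finding. Gip, the incretin of gut K cells, was bright on 1 array only, with 85.7 and 3196 on the Ins2-high arrays and 52.1, 17.4 and 63.8 on the Ins2-low arrays. Somatostatin (Sst) and pancreatic polypeptide (Ppy) were dim on all 5 arrays, at no more than 82.6 and 56.7. Beta cell markers were above 500 on some array for 6 of 6 measured genes. Without Ins2, which set the sides, the summed signal of the other 5 was 79249 to 86315 on the Ins2-high arrays and 62998 to 74152 on the Ins2-low arrays. Of these 5 only Ero1b, a gene on which the comparison was proposed, separated the sides by itself. Ins1, Iapp, Pdx1 and Slc2a2 each overlapped, so the sums do not show a drop shared by the markers.

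Apart from Gcg and Krt7, a keratin of ducts, the measured defining markers of other cell types were dim on all 5 arrays. Of the alpha cell markers Gcg and Ttr were measured, and only Gcg passed 500 on any array. None of the measured markers of delta cells (2 genes), PP cells (1), epsilon cells (1), acinar cells (8), fibroblasts (6), endothelium (2) or leukocytes (4) reached 500 on any array. The summed signal of the delta cell markers was 88.3 to 116.9 on the Ins2-high and 80.0 to 116.0 on the Ins2-low arrays. That of the leukocyte markers was 310.9 to 437.9 on the high side and 281 to 389.5 on the low side, where Tnfrsf9 was high. The acinar sum was 567 to 639 and 577 to 847. Of the duct markers only Krt7 passed 500, at 1834 and 882 on the Ins2-high arrays and 903, 808 and 1218 on the Ins2-low arrays. The summed duct signal overlapped, at 957 to 1927 on the high side and 938 to 1361 on the low side. Of 23 measured acinar and ductal genes 5 opposed Ins2 (21.7%) and 0 followed it, all at signals of at most 195 (Reg1a 77.6 and 99.8 against 151.5, 168 and 170.1, Krt19, Ptf1a, Cpb1 and Cela1). Of 20 fibroblast, endothelial and leukocyte genes 4 followed Ins2 (20.0%), all at or under 324 (the level of Sparc). Sparc followed at a gap of 1.03-fold on its brighter probe set, while its dimmer probe set opposed Ins2 at 1.29-fold. The dimmer probe set of Ptprc, another of the 4, overlapped. Without the parental line or clone 1-1.16, 10 acinar and ductal genes opposed Ins2 (43.5%, against 22.9% and 17.1% of all genes), and without clone 5-3.14, 9 did (39.1% against 18.3%). Of the fibroblast, endothelial and leukocyte genes, 8 followed Ins2 without clone 1-1.2 or clone 1-1.16 (40%, against 23.9% and 20.8%), and 7 did without the parental line (35.0% against 22.5%).

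Among genes of glucose sensing 5 of 26 followed Ins2 and 1 opposed it (19.2% and 3.8%). Of all genes 9.5% followed and 9.75% opposed Ins2, against which the shares of these lists are read. The glucose sensing followers had small gaps: Hk1 (1.13-fold, at no more than 74.2), Cacna1c (1.06-fold), Pdk1 (1.05-fold), Abcc8 (1.04-fold) and Atp2a3 (1.02-fold). The dimmer probe sets of Cacna1c and Pdk1 overlapped. The opposer was Pfkp, the platelet form of phosphofructokinase, at 985.5 and 878 against 1448, 1402 and 1414.5, a gap of 1.41-fold with an even low side. In cyclic AMP and G protein signalling 6 of 32 followed and 1 opposed Ins2 (18.75% and 3.1%). Pde3b, a phosphodiesterase that lowers cyclic AMP in beta cells, read 3996 and 2959 against 1717, 2358 and 1282. Rgs4, which shortens G protein signals, had a gap of 2.14-fold but was dim, at 125 and 66.9 against 16.2, 14.9 and 19.7, and its other probe set overlapped. In insulin and IGF signalling 0 of 21 followed and 3 opposed Ins2 (14.3%). These 3 were Grb14, Pik3r1 and Irs1, all at or under 419. Of 25 immediate early genes 2 followed and 3 opposed Ins2 (8.0% and 12.0%). Dusp1, a MAP kinase phosphatase, opposed it at 1025 and 1296 against 2228, 2502 and 1578, though its dimmer probe set overlapped. In the amino acid response governed by ATF4, 3 of 26 followed and 2 opposed Ins2 (11.5% and 7.7%). The amino acid carrier Slc7a5 read 1181 and 1242 against 1713, 2553 and 2229.7. Leaving out an array raised these small counts too. Without clone 1-1.2, where 23.9% of all genes followed and 23.5% opposed Ins2, 9 glucose sensing genes (34.6%) and 12 cyclic AMP genes (37.5%) followed it, and 8 insulin and IGF genes (38.1%), 8 immediate early genes (32.0%) and 7 ATF4 genes (26.9%) opposed it. Without the parental line, 11 cyclic AMP genes opposed it (34.4%, against 22.9% of all genes). Without clone 1-1.16, 10 ATF4 genes followed it (38.5% against 20.8%).

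Sterol and fatty acid synthesis had the largest median of any list, -0.65. Of 25 measured genes 1 followed Ins2 (Msmo1, a sterol oxidase) and 0 opposed it (4.0% and 0%, against 9.5% and 9.75% of all genes). Without clone 1-1.2, which leaves the parental line alone on the high side, 22 of 25 followed Ins2 (88.0%, against 23.9% of all genes). Without the parental line 1 of 25 did (4.0% against 22.5%), and without clone 1-1.16 also 1 (4.0% against 20.8%). Without clone 5-3.14, 13 of 25 did (52.0% against 15.0%), and without clone 5-3.19, 3 did (12.0% against 14.3%). Msmo1 read 14852 and 11116.5 against 3402, 10546 and 7791. Of the 25, 23 were lower in clone 1-1.16 than in clone 1-1.2 and 22 were lower in both 5-3 clones than in the parental line (92.0% and 88.0%), where 43.9% and 35.6% of all genes were. Clone 1-1.2 was itself below the parental line by a median of -0.78.

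The remaining lists were near the background of all genes (9.5% followed and 9.75% opposed Ins2) or rested on small gaps. In the mitochondrial respiratory chain 7 of 29 followed Ins2 (24.1%) and 1 opposed it, with gaps of at most 1.16-fold for Ndufa5, and under the other scalings 3 to 5 of 29 followed. Without the parental line, 15 of 29 followed it (51.7%, against 22.5% of all genes), while without clone 1-1.2, 7 followed (24.1% against 23.9%) and 8 opposed it (27.6% against 23.5%). Of 26 measured ribosomal protein genes 0 followed and 4 opposed Ins2 (15.4%), and by scaling 1 (median centring) to 6 (cyclic loess) opposed it. Without clone 1-1.2, 20 of the 26 opposed it (76.9%, against 23.5% of all genes), and without clone 5-3.19, 8 did (30.8% against 15.96%). The direction turned without the parental line, where 11 followed Ins2 (42.3% against 22.5%) and 4 opposed it. Of 29 genes of DNA replication and the cell cycle 2 followed and 3 opposed Ins2 (6.9% and 10.3%). The opposers were led by the helicase subunit Mcm5 at 800.4 and 1086 against 1382, 2500.5 and 2133. Without clone 1-1.2, 11 of the 29 opposed Ins2 (37.9% against 23.5%). The balance differed without the parental line, where 6 followed it (20.7% against 22.5%) and 3 opposed it (10.3% against 22.9%). Of 20 genes that beta cells normally keep low 2 followed and 1 opposed Ins2, and of 12 markers of alpha, delta, PP and epsilon cells 1 followed and 1 opposed it. That last opposer was Gcg, a gene on which the comparison was proposed.

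The arrays were alike in overall signal, with a median of 342 to 372. The added poly(A) controls were uneven between arrays. The lys controls had a geometric mean signal of 4844 on the parental array and 1201 to 1645 on the others. The phe controls had one of 8387 on the parental array and 7919 in clone 5-3.14, against 6011 to 6556 on the rest, and the thr controls 2399 and 1921 against 1332 to 1471. Of 57 control probe sets 3 followed and 3 opposed Ins2, and 0 had a 2-fold gap. The 3′ to 5′ signal ratio, a sign of RNA integrity, was 1.49 to 1.73 for beta-actin and 0.981 to 1.05 for GAPDH. For beta-actin it was 1.60 and 1.49 on the Ins2-high arrays and 1.73, 1.62 and 1.61 on the Ins2-low arrays, which do not overlap. The part of RNA integrity in the differences above was not tested.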

How the data were processed

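Total RNA of the parental INS-1 line and of 4 FLP-In T-REx clones was hybridised to rat expression arrays, 1 array each. The deposited table holds linear intensity values, 1 for each probe set on each array, judged from the values. For the authors' software, background correction and detection calls nothing is stated in the labels. The mean after trimming 2% was 1000.24 to 1000.28 on every array, so signals were used as deposited, without further scaling. Sequencing depth does not apply, and the precision is limited by 1 array per line.

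Of 15923 probe sets 57 controls were left out. Of the other 15866, 12783 had 1 gene symbol in the platform table, 312 several and 2771 none; only the first were named, and 12748 had their gene number in the GRCr8 table. Arrays were split by the Ins2 signal at 10000. Differences were taken as log2(signal + 21.8), the offset being the 10th percentile of positive signals, which understates folds of dim genes. The members and the 21 gene lists were chosen with earlier results of these data known. Genes were named by rule: those with exactly 1 symbol and a brighter side of at least 500, 14 each way by gap and 6 each way by the smaller fold of both array sets, up to 4 per list, and a set of hormone, beta cell and reference genes always named, of which Pcsk1, Actb and Gapdh had no probe set with exactly 1 symbol. No test was made. Alternatives were other scalings (median; quantile and cyclic loess with limma 3.58.1 in R 4.3.3), offsets, filters, fold limits and leaving out each array. The counting was checked on simulated signals. Python 3.11.15 with pandas 2.3.3 and NumPy 2.4.6 was used.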

Additional observations from a re-analysis of the deposited data

How the results depend on the processing

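With the offset 4 times larger, 6 probe sets followed and 5 opposed Ins2 by a 2-fold gap, and 11 were lower and 9 higher in both array sets; with it 4 times smaller these were 44, 38, 80 and 74. Keeping probe sets above the 40th percentile of signal (about 194) left 835 followers and 903 opposers with no overlap, 4 and 6 at 2-fold, and 9 lower and 12 higher in both sets. With the brighter side at 500 or more these were 633, 654, 3, 4, 7 and 7. At a 1.5-fold limit they were 94 and 82 by gap and 208 and 182 in both sets, and at 3-fold 5, 1, 7 and 2. Median centring, quantile normalization and cyclic loess kept these counts within 1.5 times, at 1588, 1520 and 1592 followers and 1433, 1553 and 1513 opposers. Leaving out an array gave 2284 to 3952 followers and 2448 to 3687 opposers, 47 to 194 and 35 to 146 at 2-fold, and, without either 5-3 clone, 88 to 99 lower and 71 to 79 higher in both sets, a count that could not be made without another array. A gap can only widen over fewer arrays. Turns of sign were recorded only for lists whose main median reached a set size, so lists with smaller medians are not covered. Among those covered, the list median turned sign for fibroblast, endothelial and leukocyte genes under both filters. It was 0.23 with the percentile filter, which kept 3 of 20 genes, and 0.64 at 500 or more. Over the arrays left out it ran from -0.27 to 4.5e-07, the last without clone 5-3.19 and too small to count as a turn. List medians also turned for oxidative folding (-0.24 without the parental line to 0.017 without clone 1-1.2) and immediate early genes (-0.048 without clone 1-1.16 to 0.32 without clone 5-3.14). The cause was not tested beyond the use of fewer genes or arrays. The list counts under other scalings and without each array, and the rule on gaps wider than a side's range, were added after the data were seen. No paired test was made, because no result comes from a test and the labels give the sides no shared replicate numbers. The only match by prefix was that of clone 1-1.16 with clone 1-1.2. Without detection calls, dim signals cannot be told from background.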
